A study of Mus musculus with 8 samples.

Results

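The Kruppel-like factors (KLFs) examined here are 10 genes, Klf2, Klf3, Klf4, Klf5, Klf6, Klf7, Klf9, Klf10, Klf13 and Klf15, chosen by name from the 47706 rows of a gene count table. Each symbol had 1 row in the table and all 10 genes passed the filter on low counts, so that no member was left out. Transcripts were counted by RNA sequencing of primary calvarial osteoblasts, the bone-forming cells of the newborn mouse skullcap, after 7 days of differentiation. PTH, given as the N-terminal fragment of the human hormone, was added to 4 cultures for 24 hours and its vehicle, PBS, to 4 others. The methods describe an osteogenic medium of β-glycerol phosphate and ascorbic acid, and serum starvation before treatment, for all 8 cultures, whereas the labels of all 8 name adipogenic differentiation. The sample names begin with Con, which the labels do not explain, and the labels give neither strain nor sex. The methods name C57BL/6 as the background of the study's transgenic mice without tying these cultures to a strain, and nothing says whether the cultures came from separate preparations of cells. The p-values therefore measure the spread between these 8 samples, which may in part be technical.

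KLFs are transcription factors that bind GC-rich sequences and CACCC boxes through zinc fingers at the C-terminal end of the protein, a feature shared with the Sp factors, to which Sp7 (osterix) of the osteoblast lineage belongs. The N-terminal parts differ and set the partners of each factor. Klf3, like Klf8 and Klf12, recruits the corepressor CtBP. Klf2, Klf4, Klf5, Klf6 and Klf7 can recruit acetyltransferases such as p300, and Klf9, Klf10 and Klf13 recruit Sin3a and its histone deacetylases. Several KLF genes are known as early responders to hormones, serum or mechanical load, and Klf10 was first isolated from human osteoblasts as a gene induced by TGF-β.

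Total counts lay between 33605610 and 56090654 per library, and levels are given as CPM, counts scaled to the TMM-normalized library size. Tnfsf11, which encodes RANKL and served as a check of the labels, had at most 1.79 CPM in any vehicle-treated culture and at least 115 CPM in any PTH-treated culture. Osteoblast markers were abundant, with summed levels between 86680 and 125195 CPM, most of it Col1a1, Col1a2 and Sparc. Other markers were much lower. With vehicle Ibsp averaged 1407 CPM, Bglap 252 CPM and Dmp1 18.1 CPM. Endothelial cells and epithelia, which are known for high Klf2, Klf4 and Klf5, left little trace. The endothelial markers Pecam1 and Cdh5 stayed below 1 CPM in every culture, Emcn was at 0 in all of them, and the summed level of 10 endothelial markers lay between 9.39 and 10.8 CPM with vehicle and between 9.33 and 11.3 CPM with PTH. Of 7 epithelial markers, Krt14 was at 0 throughout and the sum was at most 2.28 CPM. Macrophage markers were present, at 1005 to 1624 CPM summed over 10 genes with vehicle and 1574 to 2045 CPM with PTH, most of it Lyz2. In a bulk sample, fewer cells of a type and less RNA per cell cannot be told apart.

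PTH changed the level of 9 of the 10 KLF genes. Klf2, Klf4, Klf5, Klf9, Klf10 and Klf13 were upregulated, Klf3, Klf7 and Klf15 were downregulated, and Klf6 did not pass the threshold (edgeR's quasi-likelihood test, Benjamini-Hochberg adjusted p under 0.05 over 16736 genes). By the same test 45.8% of all genes were differentially expressed, 23.3% up and 22.5% down. In the same 9 members the PTH-treated and vehicle-treated cultures did not overlap, which held for 43% of all tested genes. The median log2 fold change of the 10 members was 0.47, against -0.00081 for all tested genes. The sizes differed widely, from a log2 fold change of -2.79 for Klf15 to 1.87 for Klf4, and the mean levels ranged from below 1 to over 300 CPM, as the plot of each culture shows.

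**Figure D1:**
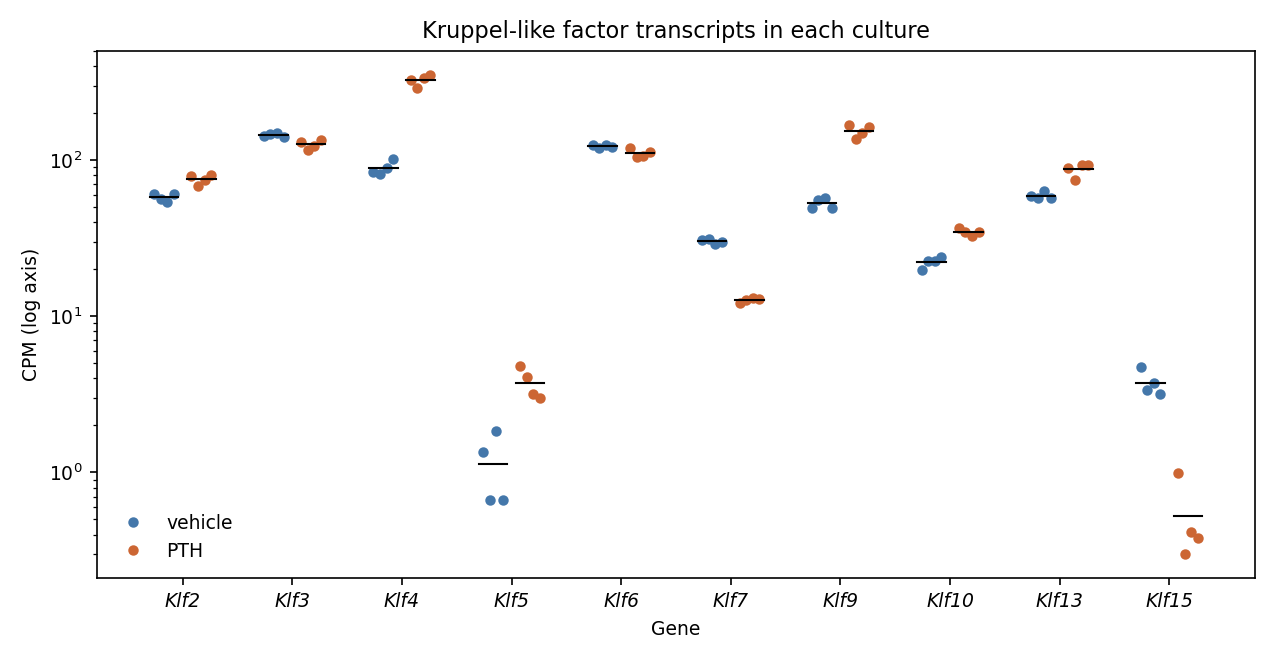
Levels of the 10 KLF genes in each of 4 vehicle-treated and 4 PTH-treated cultures, in CPM on a log axis. Points are cultures in the order of their numbers and black lines are means. The points of the treatments are separate for every gene but Klf6, and the widest gaps are those of Klf4, Klf9 and Klf15.

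Klf4 had the largest rise of the members. It is one of the factors used to reprogram somatic cells to pluripotency and is known in osteoblast precursors as a regulator of differentiation. It lies on chromosome 4 from 55527143 to 55532466 on the minus strand of GRCm38. With vehicle it was measured at 84.1, 81.8, 89.2 and 102 CPM, and with PTH at 324, 288, 337 and 352 CPM. Every PTH-treated culture was therefore far above every vehicle-treated one, by a ratio of means of 3.64 (log2 fold change 1.87 ± 0.0890 SE, adjusted p = 8.23e-09). Of all tested genes, 4.0% had a larger change in either direction. Its close relative Klf2, known from endothelial cells under flow and from resting lymphocytes, rose much less. Klf2, on chromosome 8 from 72319033 to 72321656, had 60.3, 56.3, 54.1 and 60.5 CPM with vehicle and 79.4, 67.8, 74.1 and 79.7 CPM with PTH. The cultures did not overlap (log2 fold change 0.38 ± 0.0713 SE, adjusted p = 9.32e-04). Macrophages are known to express Klf2 and Klf4. Beside these rises 3 of the 10 macrophage markers rose too (Cd14, Lyz2 and Tyrobp) and none fell, with a median log2 fold change of 0.33. Over all tested genes 23.3% rose and 22.5% fell. The log2 fold changes of the 10 markers ran from 0.0089 for Cx3cr1 to 0.86 for Tyrobp. Csf1r and Adgre1 did not pass the threshold (log2 fold change 0.19 and 0.25). Of the 10 markers only Tyrobp was without overlap between treatments, so that Cd14 and Lyz2 overlapped too. The part of macrophages in the rise of Klf2 was not tested.

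The bases before the starts of these genes were read from the RefSeq promoter table of GRCm38.p6, which matched 8 of the 10 members and has no entry for Klf5 and Klf10. The windows of Klf4 and Klf15 are shown because these genes had the largest rise and the largest fall, and that of Klf2 because it alone held a MEF2 site. Each runs 5′ to 3′ on the gene's own strand over the 250 bases up to the start. Capitals mark matches on either strand to the half-site of the cAMP response element (TGACG, or its complement CGTCA), the KLF box (CACCC, or GGGTG), the GC box (GGGCGG, or CCGCCC) and the MEF2 site. The Klf4 window is chr4:55532476-55532725 on the minus strand, the Klf15 window chr6:90462326-90462575 and the Klf2 window chr8:72318812-72319061, both on the plus strand. The last 29 bases of the Klf2 window lie within the GENCODE model of the gene. Of the windows not shown, that of Klf7 lies wholly within the GENCODE model of its gene, and those of Klf3 and Klf6 lie partly within theirs.
Klf4: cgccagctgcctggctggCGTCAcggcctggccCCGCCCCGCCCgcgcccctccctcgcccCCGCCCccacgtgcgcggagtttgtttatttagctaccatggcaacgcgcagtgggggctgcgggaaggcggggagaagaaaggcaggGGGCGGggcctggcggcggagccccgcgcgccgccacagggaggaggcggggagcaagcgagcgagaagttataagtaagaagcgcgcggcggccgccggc
Klf15: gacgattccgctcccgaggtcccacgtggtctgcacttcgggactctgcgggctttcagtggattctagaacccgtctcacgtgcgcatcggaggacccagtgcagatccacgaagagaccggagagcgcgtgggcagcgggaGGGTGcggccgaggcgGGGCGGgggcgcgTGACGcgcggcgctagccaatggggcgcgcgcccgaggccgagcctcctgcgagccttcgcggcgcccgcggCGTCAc
Klf2: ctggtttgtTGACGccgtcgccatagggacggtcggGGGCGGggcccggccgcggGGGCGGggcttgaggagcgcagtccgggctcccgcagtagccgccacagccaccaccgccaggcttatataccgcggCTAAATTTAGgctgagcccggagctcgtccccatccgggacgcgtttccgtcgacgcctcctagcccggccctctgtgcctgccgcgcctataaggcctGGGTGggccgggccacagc

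PTH acts in osteoblasts in large part through cAMP, which CREB-family factors read out at such elements. The full element TGACGTCA was found in none of the 8 windows of 300 bases (250 before and 50 after the start), and in 1.79% of all 32851 promoters. The half-site was found in 6 of the 8 (Klf2, Klf3, Klf4, Klf9, Klf13 and Klf15) and in 20.8% of all promoters. It was present in 31.4% of the 11074 promoters with a GC content at least that of the lowest member (58.3%). The full element was present in 3.14% of these GC-rich promoters. KLF boxes were in 6 of the 8 windows, against 57.5% of all promoters and 70.4% of the GC-rich ones, and GC boxes in 7 of the 8, against 35.7% and 77.1%. Half-sites were thus found before both the gene with the largest rise and the gene with the largest fall. The MEF2 site, searched as CTA, 4 bases of A or T, and TAG, lay 118 to 109 bases before the start of Klf2. Of all promoters 0.557% held one, and of the GC-rich ones 0.271%. These are matches of letters and not measured binding sites.

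**Figure D2:**
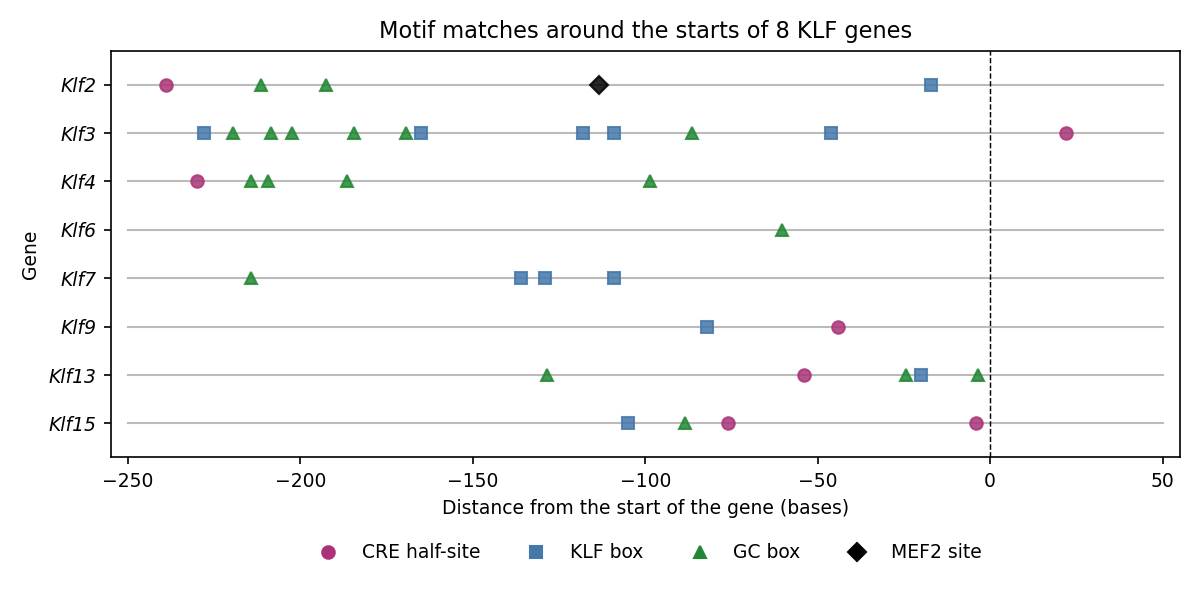
Matches to 4 motifs on either strand around the starts of the 8 KLF genes with a promoter entry. The x axis is the distance from the start in bases, from 250 before to 50 after it, and each symbol is the midpoint of a match. CRE half-sites appear in 6 of the 8 genes and the MEF2 site in Klf2 alone.

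Among the other factors of the acetyltransferase-binding kind, Klf5 rose, Klf7 fell and Klf6 did not pass the threshold. Klf5, known from epithelia and smooth muscle, had 1.36, 0.666, 1.84 and 0.665 CPM with vehicle and 4.78, 4.09, 3.18 and 3.0 CPM with PTH. These rest on 29 to 88 counts in vehicle-treated and 122 to 245 in PTH-treated libraries. Its treatments did not overlap, although the vehicle-treated cultures scattered widely for their mean, 1.13 ± 0.572 CPM (log2 fold change 1.73 ± 0.331 SE, adjusted p = 0.00108). Klf7, known from neurons and as an inhibitor of adipocyte differentiation, had 30.7, 31.2, 29.1 and 30.0 CPM with vehicle and 12.2, 12.7, 13.1 and 12.9 CPM with PTH. The spread within each treatment was small (SD 0.941 and 0.401 CPM), the treatments did not overlap, and the mean was 2.38 times as high with vehicle (log2 fold change -1.25 ± 0.0704 SE, adjusted p = 3.60e-08). Klf7 lies on chromosome 1 from 64029447 to 64122282, and the lincRNA Gm26649 on the opposite strand matches it over 2826 bases but had 0 counts in all 8 libraries. Klf6, a factor known from injury responses that is expressed in many tissues, had 124, 119, 125 and 122 CPM with vehicle and 120, 105, 106 and 113 CPM with PTH. PTH replicate 1 lay above vehicle replicate 2, so the treatments overlapped. The log2 fold change of Klf6 was -0.14 with a 95% interval from -0.28 to -0.0068 before adjustment, and the adjusted p was 0.0812. Without PTH replicate 1, Klf6 passed the threshold (log2 fold change -0.18, edgeR adjusted p = 0.0240).

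All 3 members that recruit Sin3a were upregulated, as were 23.3% of all tested genes. Outside the members, Klf11 and Klf16 also bind Sin3a and were downregulated (log2 fold change -1.87 and -0.67). Klf9, which is known as an early target of thyroid hormone and glucocorticoids, lies on chromosome 19 from 23141226 to 23168134. It had 49.5, 55.4, 56.9 and 49.4 CPM with vehicle and 169, 137, 149 and 163 CPM with PTH, a ratio of means of 2.92 (log2 fold change 1.55 ± 0.0821 SE, adjusted p = 2.14e-08). Its relative Klf13, known for control of Ccl5 (RANTES) in T cells, rose less. Klf13 had 58.5, 57.3, 63.6 and 57.1 CPM with vehicle and 88.5, 74.5, 92.3 and 93.4 CPM with PTH (log2 fold change 0.56 ± 0.0790 SE, adjusted p = 1.12e-04). Its treatments did not overlap either. Klf10, also named TIEG for its induction by TGF-β, had 19.8, 22.7, 22.6 and 23.8 CPM with vehicle and 36.7, 34.6, 32.4 and 34.5 CPM with PTH. The lowest PTH-treated culture was well above the highest vehicle-treated one (log2 fold change 0.64 ± 0.0772 SE, adjusted p = 3.43e-05).

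The remaining members were downregulated, 1 slightly and 1 steeply. Klf3, which acts mainly as a repressor through CtBP, had 143, 147, 149 and 140 CPM with vehicle and 131, 117, 124 and 135 CPM with PTH. The treatments did not overlap, but the difference was small (log2 fold change -0.19 ± 0.0634 SE, adjusted p = 0.0252). Its adjusted p rose above 0.05 if PTH replicate 2 (0.0669), PTH replicate 3 (0.0743), vehicle replicate 1 (0.0532), vehicle replicate 2 (0.0748) or vehicle replicate 3 (0.0734) was left out of the edgeR fit, or the sample number was made a block (0.0681). The noncoding gene Gm20033 on the opposite strand matches Klf3 over 405 bases and had 19 to 105 counts per library. Klf15, known from liver, muscle and kidney as a glucocorticoid-induced regulator of amino acid and glucose metabolism, lies on chromosome 6 from 90462576 to 90475238. It had 4.75, 3.38, 3.71 and 3.16 CPM with vehicle and 0.995, 0.301, 0.418 and 0.380 CPM with PTH. All PTH-treated cultures were below all vehicle-treated ones, and the mean with vehicle was 7.17 times that with PTH (log2 fold change -2.79 ± 0.346 SE, adjusted p = 3.98e-05). These levels rest on 147 to 213 counts with vehicle and on 51, 10, 16 and 16 counts with PTH. Of all tested genes, 1.79% had a larger absolute change than Klf15.

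Some libraries were at the edge of their group for many members. PTH replicate 2, the smallest library, was the lowest of the 4 for 7 of the 10 members and the highest for none, and PTH replicate 1, the largest library, was the highest for 5. Among vehicle-treated cultures, replicate 4 was the lowest for 5 members and the highest for 3. Vehicle replicate 3 was the highest for 5 and the lowest for 2. Vehicle replicate 4 also had the highest level within its group of all 10 macrophage markers and of all 10 osteoblast markers, Sp7 included. Whether library size had a part in the order of the PTH-treated cultures was not tested.

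Levels of different genes can be compared once divided by length, here all exonic bases of the gene in GENCODE M21, which gives RPKM. With vehicle, Klf2 (31.3 ± 1.71 RPKM, SD, n = 4), Klf4 (29.3 ± 2.94) and Klf6 (27.9 ± 0.612) led and overlapped with their neighbours in this order. Klf3 (12.9 ± 0.338), Klf9 (11.0 ± 0.808), Klf13 (7.85 ± 0.402), Klf10 (5.32 ± 0.410), Klf7 (3.72 ± 0.116), Klf15 (1.34 ± 0.252) and Klf5 (0.218 ± 0.110) followed, each without overlap with the next. With PTH, Klf4 stood alone at 107 ± 8.97 RPKM, followed by Klf2 (40.7 ± 3.03), Klf9 (32.1 ± 2.97) and Klf6 (25.2 ± 1.57), none of which overlapped. Klf13 (11.6 ± 1.16) and Klf3 (11.2 ± 0.713) overlapped, and Klf10 (8.27 ± 0.416), Klf7 (1.56 ± 0.0494), Klf5 (0.723 ± 0.160) and Klf15 (0.188 ± 0.114) came last. Klf5 and Klf15, the least abundant members, had thus changed places. The place of Klf3 depends on the length used. By its longest transcript, of 5221 bases in place of 11243 exonic bases, Klf3 had 27.7 ± 0.729 RPKM with vehicle, close to Klf6 (29.0 ± 0.636), and 24.2 ± 1.54 RPKM with PTH.

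The summed RPKM of the 10 members rose from 131 ± 3.21 with vehicle to 238 ± 16.8 with PTH, a ratio of 1.82, and the sums did not overlap (127 to 135 against 214 to 253). Klf4 made up 22.4 ± 1.70% of the sum with vehicle and 44.8 ± 1.44% with PTH. The share of Klf9 went from 8.40 ± 0.739% to 13.4 ± 0.547%, and that of Klf6 from 21.3 ± 0.570% to 10.6 ± 0.573%. Klf2 had a smaller share with PTH (17.1 ± 0.276% against 23.9 ± 1.19%) even though its own level rose. Without Klf4 the ratio of the sums was 1.30, and without Klf4 and Klf9 it was 1.10. The sum over all 17 KLF genes listed, the members included, rose by a ratio of 1.72. The sums describe the members and were not tested.

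**Figure D3:**
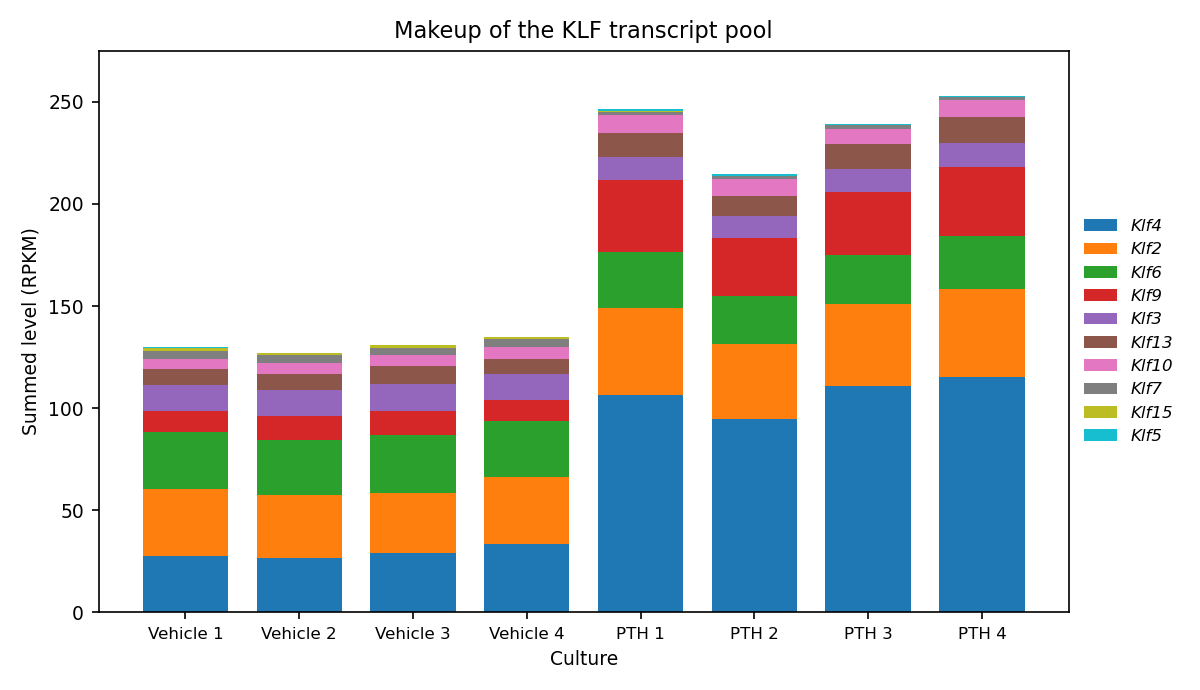
Summed level of the 10 KLF genes in each culture in RPKM, stacked by gene. The 4 vehicle-treated cultures reach 127 to 135 RPKM with Klf4, Klf2 and Klf6 in similar parts, and the 4 PTH-treated cultures reach 214 to 253 RPKM, of which Klf4 is 43.1 to 46.3%.

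Close relatives responded differently. For 4 pairs of related genes the log2 ratio of their CPM was taken within each culture, which removes differences in library size, and compared between treatments by exact permutation over the samples (p = 0.0286 for every pair, two-sided, the smallest that 4 samples against 4 allow, and 0.0286 adjusted over the 4 pairs). The ratio of Klf2 to Klf4 went from -0.62 ± 0.134 with vehicle to -2.11 ± 0.0687 with PTH (SD, n = 4), a difference of -1.49 on the log2 scale (standard error 0.0753). The ratio of Klf6 to Klf7 went from 2.01 ± 0.0707 to 3.11 ± 0.126, a difference of 1.10 (standard error 0.0722). In this pair Klf7 fell and Klf6 did not pass the threshold. The ratio of Klf9 to Klf13, both of which rose, differed by 0.99 (standard error 0.0668), from -0.16 ± 0.0840 to 0.82 ± 0.104. The widest difference was that of Klf10 to Klf11, 2.47 (standard error 0.124), from 0.77 ± 0.225 to 3.25 ± 0.102. Klf10 and Klf11 are both named TIEG genes and moved in opposite directions. Each was separate between treatments by itself, so the separation of their ratio had to follow. In the other pairs too, the ranges of the single genes within each treatment already kept the ratios apart. The permutation p therefore adds nothing to the results of the single genes in any of the 4 pairs.

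**Figure D4:**
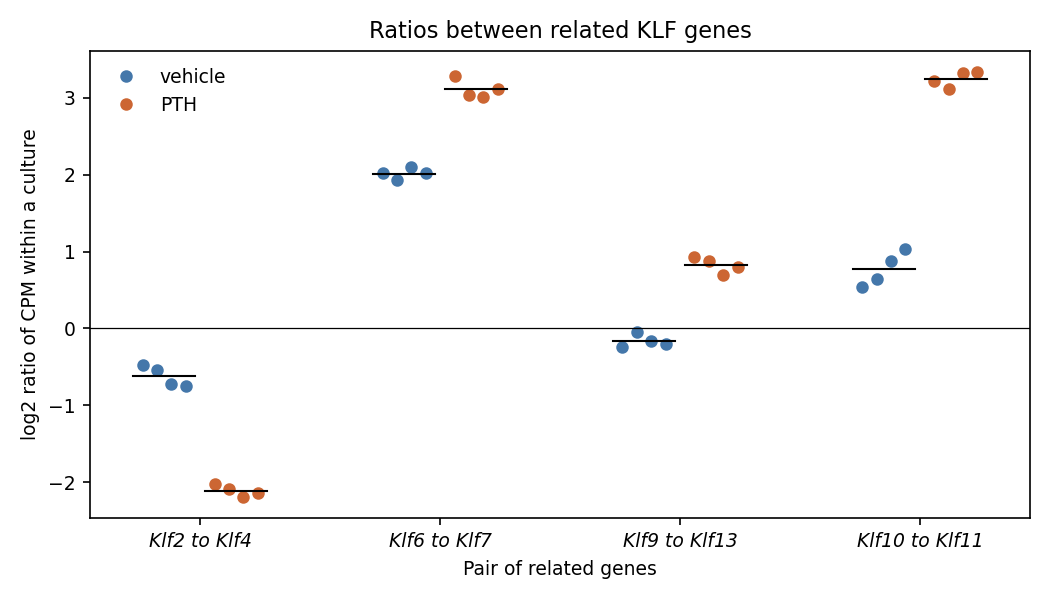
Log2 ratios of CPM between 4 pairs of related KLF genes within each of the 4 vehicle-treated and 4 PTH-treated cultures, with black lines for means. In every pair the treatments are separate, by -1.49 for Klf2 to Klf4, 1.10 for Klf6 to Klf7, 0.99 for Klf9 to Klf13 and 2.47 for Klf10 to Klf11.

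Of the 7 KLF genes outside the members, Klf1, the erythroid factor, and Klf17 had too few counts to be tested (at most 11 and 0 in any library). Klf11 had 11.6 to 14.5 CPM with vehicle and 3.16 to 3.91 CPM with PTH (log2 fold change -1.87 ± 0.123 SE, adjusted p = 1.50e-07). Klf16, which like Klf11 binds Sin3a, fell from 21.2 ± 2.28 to 13.3 ± 0.83 CPM (log2 change -0.67, with adjusted p = 1.12e-04). Klf8, a CtBP-binding repressor, fell from 2.40 ± 0.709 to 1.08 ± 0.423 CPM (log2 change -1.16, with adjusted p = 0.0115). Klf12, the other CtBP-binding relative of Klf3, had 5.44 ± 0.718 and 4.97 ± 0.135 CPM (log2 change -0.13, with adjusted p = 0.464). Klf14, an imprinted gene expressed from the maternal allele and known from adipose tissue, rose from 2.36 to 3.10 CPM with vehicle to 8.27 to 11.2 CPM with PTH (log2 fold change 1.76 ± 0.147 SE, adjusted p = 1.30e-06). The 5 tested genes outside the members thus held 1 that rose and 3 that fell. Among the 10 members 6 rose and 3 fell, and among all tested genes 23.3% rose and 22.5% fell. A difference between members and relatives was not tested.

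The Sp factors, which share the zinc fingers and the GC-rich sites of the KLFs, included both rises and falls. Of 9 listed, 7 were tested, 3 were downregulated and 1 was upregulated, and their median log2 fold change was -0.17. Among all tested genes 22.5% were downregulated and 23.3% upregulated. Sp7, required for the formation of osteoblasts, fell from 74.8, 86.3, 109 and 142 CPM with vehicle to 30.2, 30.4, 25.9 and 33.9 CPM with PTH (log2 fold change -1.78, adjusted p = 4.45e-06). Sp1, the widely expressed founder of the family, fell from 93.2 ± 2.32 to 56.5 ± 4.51 CPM (log2 change -0.72, with adjusted p = 3.67e-06), and Sp3 from 93.3 ± 7.24 to 74.7 ± 5.08 CPM (-0.32, adjusted p = 0.00392). Sp2 (-0.17, adjusted p = 0.156), Sp4 (-0.16, adjusted p = 0.392) and Sp9 (0.94, adjusted p = 0.0821) did not pass the threshold, and Sp5 and Sp8 had too few counts. A stretch of 443 bases of Sp1 is also part of a transcript of Cntrob. Sp6 passed it upward, with 0, 0, 7 and 5 counts with vehicle and 107 to 241 with PTH. The size of its rise is uncertain, since Gm11532 on the opposite strand matches Sp6 over 3330 bases and the strand setting of the counting is not given. The 2 genes together had 10 to 61 counts with vehicle and 179 to 241 with PTH, a difference of 2.66 on the log2(CPM + 0.1) scale (exact permutation test, two-sided p = 0.0286). The summed RPKM of the 9 Sp genes was 68.1 ± 9.73 with vehicle and 38.8 ± 2.49 with PTH, a ratio of 0.570. Much of that fall lay in Sp7, which went from 30.3 ± 8.71 to 8.85 ± 0.958 RPKM. For the 10 KLF members the ratio was 1.82, and without Klf4 and Klf9 it was 1.10.

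**Figure D5:**
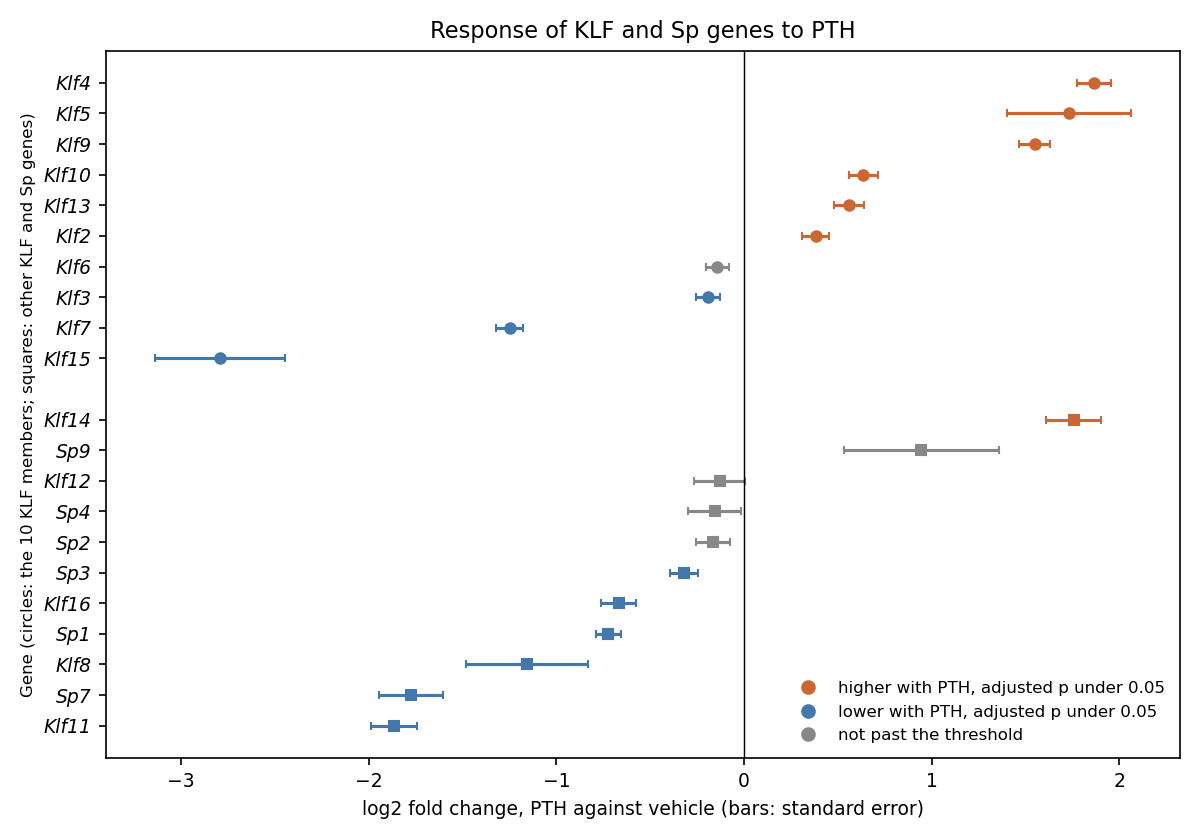
Log2 fold changes of PTH against vehicle with standard errors for the 10 KLF members (circles, upper part) and the other tested KLF and Sp genes (squares, lower part), without Sp6, whose size is uncertain. The 6 upregulated members lie above 0 past the threshold, from 0.38 for Klf2 to 1.87 for Klf4, and the squares past the threshold lie below 0 except Klf14.

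Klf2 and Klf4 are known in other cells as targets of the kinase ERK5, encoded by Mapk7, which acts through MEF2 factors. Of 8 genes of this route, 7 were tested, 4 were downregulated and 2 were upregulated, and the median log2 fold change was -0.25. The shares over all tested genes were 22.5% down and 23.3% up. Mapk7 itself fell from 47.9 ± 2.05 to 23.6 ± 1.33 CPM (log2 change -1.02, with adjusted p = 1.75e-07) and its activating kinase gene Map2k5 from 23.2 ± 0.995 to 14.6 ± 1.71 CPM (-0.67, adjusted p = 1.01e-04). Mef2c had the largest fall, from between 68.5 and 124 CPM to between 23.0 and 26.5 CPM (log2 change -1.84, with adjusted p = 1.34e-06). Mef2d rose from 74.2 ± 7.91 to 123 ± 3.54 CPM (0.73, adjusted p = 1.06e-05), and Mef2a had 206 ± 7.41 and 185 ± 13.8 CPM (-0.15, adjusted p = 0.0886). Map3k2, an upstream kinase gene, rose too (0.51, adjusted p = 1.34e-04), Map3k3 fell (-0.25, adjusted p = 0.00728), and Mef2b had too few counts to be tested. The activity of the route was not measured.

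Klf9 and Klf15 are both known as targets of the glucocorticoid receptor, and here they moved in opposite directions, with log2 fold changes of 1.55 and -2.79. The list of the receptor gene and 6 of its known targets held more rises than falls, with a median log2 fold change of 0.81. All 7 passed the threshold, where 45.8% of all tested genes did. Nr3c1, which encodes the receptor, fell from 187 ± 7.43 to 94.8 ± 3.07 CPM (log2 change -0.98, with adjusted p = 7.04e-08), and Fkbp5 from 9.58 ± 0.95 to 7.11 ± 1.20 CPM (-0.43, adjusted p = 0.0225). The other 5 were upregulated, from 0.66 for Tsc22d3 (adjusted p = 8.71e-06) to 3.54 for Dusp1 (adjusted p = 1.26e-11), a phosphatase gene that cAMP also induces. Per1 (0.81), Sgk1 (1.44) and Zbtb16 (1.88) lay between them.

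Of 13 genes described in other cells as targets of single KLFs, 6 were upregulated and 3 were downregulated, with a median log2 fold change of 0.18. All tested genes held 23.3% that were upregulated and 22.5% that were downregulated. Thbd, which encodes thrombomodulin and is known as a target of KLF2 and KLF4 in endothelial cells, had the largest rise, from 213, 209, 191 and 173 CPM to 998, 699, 744 and 844 CPM (log2 change 2.06, with adjusted p = 3.51e-08). S1pr1, a lipid receptor gene known as a KLF2 target in T cells, rose from 109 ± 8.77 to 318 ± 78.1 CPM (1.54, adjusted p = 3.34e-06). The cell cycle inhibitor gene Cdkn1a, linked to KLF4 and KLF6, rose from 333 ± 15.5 to 572 ± 57.0 CPM (0.78, adjusted p = 9.30e-06), and Plau, linked to KLF6, from 45.9 ± 5.20 to 96.9 ± 3.78 CPM (1.08, adjusted p = 4.65e-07). Lgals3 (0.82) and Smad7 (0.42) were the other rises. Pdgfa, known as a target of KLF5, had the largest fall (log2 fold change -0.42, adjusted p = 0.00580). Eng, an endothelial receptor gene linked to KLF6, also fell (-0.26, adjusted p = 0.0401), although its treatments overlapped. Ccnd1 (-0.06, adjusted p = 0.536) and Ccl5, the gene named above for KLF13 (0.09, adjusted p = 0.699), did not pass the threshold. The targets linked to KLF15 had log2 fold changes of -0.25 for Bcat2 (adjusted p = 0.0214), 0.18 for Slc2a4 (adjusted p = 0.352) and -0.11 for the scarce Prodh (adjusted p = 0.869). Whether any KLF protein acted on these genes was not measured.

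The genes whose log2 CPM followed Klf4 most closely over the 8 cultures were Tmem120b (Pearson r = 0.999), Dusp14 (0.999) and Sash1 (0.998). They had log2 fold changes of 1.41, 3.39 and 0.90. Klf15 was followed most closely by Pcmtd2 (r = 0.996), Rnf24 (0.992) and Pla2g15 (0.991), with log2 fold changes of -0.48, -0.80 and -0.62. These correlations describe 4 cultures against 4 and carry the difference between treatments. Of the 14069 genes averaging 1 CPM or more, 1065 had r above 0.95 with Klf4 and 513 with Klf15.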

How the data were processed

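RNA was sequenced from 4 PTH-treated and 4 vehicle-treated cultures as poly(A) libraries with paired reads. Per the labels and methods, the authors used HISAT2 to align to GRCm38 (mm10 in the submitters' processing notes), assembled transcripts with StringTie and deposited whole-number counts per gene, made by StringTie's companion script from transcript coverage and not normalized. Annotation version, strand setting and the read length given to that script are not given in the sources used here. Groups were taken from the sample titles.

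Counts of 16736 genes passing filterByExpr (minimum count 10, minimum total 15) were compared by edgeR 4.0.16 (TMM, two-sided quasi-likelihood F-test, Benjamini-Hochberg adjustment, adjusted p under 0.05) in R 4.3.3, which was tested on simulated data. The study used DESeq2, here an alternative (1.42.0). Correlations use log2 CPM with a prior count of 2, and ratios log2(CPM + 0.1). Positions and lengths come from GENCODE M21 (GRCm38), promoters from RefSeq (GRCm38.p6), and similar sequence from blastn 2.17.0 (at least 150 bases at 95% identity). The rule for named genes took the members, the other KLF and Sp genes, the largest rise and fall of each further list with up to 4 others past the threshold, and the 3 genes most like Klf4 and Klf15. Genes of these lists named beyond that rule, among them those that did not pass the threshold, were chosen after their values were seen. The Klf2 window was chosen after its motifs were seen. The members and lists were chosen with earlier results of these data known.

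Alternatives were DESeq2, its size factors, no filter on low counts, a replicate block, each sample left out, counts summed by symbol, counts halved for the read length, exact permutation tests and another pseudocount. Depth limits genes with few counts, such as Klf5 and Klf15. Samples of the same number were correlated between -0.041 and 0.027 after removal of the treatment means.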

Additional observations from a re-analysis of the deposited data

Results flagged for a closer look

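In PTH replicate 1, Klf15 had 0.995 CPM (51 counts), far above the 0.301 to 0.418 CPM of the other 3 PTH-treated cultures (10 to 16 counts). Its gap to the next culture was 83.2% of the range of the 4. Of 52 groups of 4 values examined this was the only one set apart in this way, and chance sets apart about 1 in 20. Without PTH replicate 1 the log2 fold change of Klf15 was -3.34, so that the direction did not rest on that culture, and PTH replicate 1 remained below all vehicle-treated cultures.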

How the results depend on the processing

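The 6 rises and the falls of Klf7 and Klf15 passed the threshold under every alternative fit. The exact permutation test gave each of these genes p = 0.0286, the smallest that 4 samples against 4 allow. It was not adjusted over all genes. Over the fits that each left out 1 sample, 6 members were upregulated and 2 to 4 downregulated, while 3412 to 4119 of all genes were upregulated and 3259 to 3955 downregulated. The samples share numbers but no stated origin. With the sample number as a block, 6 members were upregulated and 2 downregulated, Klf3 having lost its call, and the ratios differed by the same -1.49 (Klf2 to Klf4), 1.10 (Klf6 to Klf7), 0.99 (Klf9 to Klf13) and 2.47 (Klf10 to Klf11), with p = 0.125 by an exact sign-flip test, the smallest that 4 pairs allow. With the longest transcript as length, chosen after seeing the data, Klf4 made up 19.4% of the summed RPKM with vehicle and 41.1% with PTH. Of single KLF and Sp genes, 323 values kept their side of the threshold and 6 of Klf3 lost it. Klf6 (without PTH replicate 1) and Sp9 (counts halved, log2 fold change 0.99, edgeR adjusted p = 0.0473) gained it. Values of the permutation tests were counted by their unadjusted p. Klf3 and Klf6 differ between treatments by amounts close to the spread between cultures, and the call of each depends on single cultures.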

Other observations

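Of 11 corepressor and coactivator genes of KLF proteins, 2 were upregulated, 4 were downregulated and 5 did not pass the threshold, where 45.8% of all tested genes passed it. Sin3a had the largest fall, from 50.6 ± 1.72 to 29.3 ± 1.57 CPM (log2 fold change -0.79, edgeR adjusted p = 1.21e-06), and Sin3b the largest rise, from 62.3 ± 6.09 to 81.4 ± 5.23 CPM (0.39, adjusted p = 0.00183). The CtBP genes, whose products bind Klf3, did not pass the threshold (-0.13 for Ctbp1 and -0.04 for Ctbp2). Of 8 ubiquitin ligase genes described as acting on KLF proteins, 2 were upregulated, 3 were downregulated and 3 did not pass the threshold. Both shares are near that of all genes, so that the counts say nothing particular to these lists. Smurf2 rose most, from 103 ± 2.57 to 172 ± 10.2 CPM (0.75, adjusted p = 1.30e-06), and Btrc fell most, from 27.0 ± 0.919 to 22.1 ± 1.67 CPM (-0.29, adjusted p = 0.00760). Fbxw7 was upregulated (0.47) and Wwp1 (-0.20) and Smurf1 (-0.28) were downregulated.

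The summed level of 8 adipocyte markers lay between 39.8 and 55.5 CPM with vehicle and between 34.8 and 54.9 CPM with PTH. Of these, 7 were tested and 1 was downregulated, Pparg, from 16 ± 1.42 to 5.67 ± 0.573 CPM (log2 fold change -1.50, edgeR adjusted p = 3.66e-07). Of 10 osteoblast markers, none was upregulated and 3 were downregulated, Runx2, Sp7 and Dmp1. Over all tested genes the shares were 23.3% up and 22.5% down. The single epithelial marker called was Krt18, which was upregulated at 0.679 to 1.11 CPM with PTH. Of the 7 endothelial markers tested, Kdr was upregulated and Tek was downregulated. The treatments overlapped for Kdr, at 0.313 to 1.23 CPM with vehicle and 1.11 to 2.74 CPM with PTH. The 9 PTH response genes listed as a check of the labels all passed the threshold, 8 upward and Pth1r downward.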
